A study of Drosophila melanogaster with 4 samples.

Results

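A total of 800 RNA polymerase II (Pol II) regions on 2L, the left arm of chromosome 2 of Drosophila melanogaster, are described here, out of 4366 in the deposited list of the whole series. They are all the rows of that list on 2L, without the separate heterochromatic scaffold 2LHet. The regions come from chromatin immunoprecipitation and sequencing (ChIP-seq) of whole mixed embryos collected from 0 to 24 h of development. Chromatin extractions 1 and 2, called replicate 1 and replicate 2, were precipitated with the mouse monoclonal antibody CTD4H8 against the repeated carboxyl-terminal domain of Pol II. Both groups of the series, 2 ChIP samples and 2 input samples from extractions 3 and 4, share the same stage, and the labels give no strain, genotype or treatment. The input samples were not analysed here. A mixed collection holds every embryonic stage and all tissues, so a region gives no stage or cell type.

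Pol II transcribes the protein-coding genes and many non-coding RNAs. In fly embryos it is known to pause soon after starting transcription, which gathers it in a short peak at the promoter, while genes in active elongation also carry it along the gene body. A short gene under heavy transcription can be covered from end to end. Positions below are on 2L of FlyBase r5.1, counted from 1 at the telomere end towards the centromere. No genes or sequences on r5.1 were at hand, so regions carry no gene, exon or sequence.

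The deposited lists give the ends of each region and the authors' score, a number with no stated unit that was set against other scores of 2L only. Replicate 1 held 1046 regions on 2L covering 232 kb, replicate 2 held 1630 covering 459 kb, and the 800 regions of the whole-series list, called members below, covered 337 kb. That is 1.47% of the arm up to the furthest region end, at 22.96 Mb. The lists hold no read counts, so depth is unknown, and Pol II may also sit at positions that no list names. With 1 list per extraction there is no test between groups; the intervals below cover counting error only.

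All 800 members overlapped both replicates, which follows from how the list was made: each ran from the first to the last base of the replicate regions it joined. A single region of each replicate was joined in 742 members (92.75%, against 94.0% over the whole-series list). The other 58 joined up to 3 regions of a replicate, 48 of them several regions of replicate 1 and 15 several of replicate 2.

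The strongest Pol II regions of the arm were not broad, and each extraction ranked them differently. The 15 highest-scoring members were 181 to 616 bp wide, against a median of 276.5 bp (quartiles 204 and 517.5 bp) over all 800. Each of the 15 joined a single region of either replicate, as did 92.75% of all members. Of the 15, 7 stood among the 80 highest of both replicates. The highest mean belonged to the 181 bp region at 20223064 to 20223244, which scored 16.2 in replicate 1 and 3.85 in replicate 2. It held place 1 of 800 in replicate 1 and place 329 in replicate 2, so its position rests on a single extraction.

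The next was 616 bp wide, at 13736140 to 13736755, with scores of 7.31 in replicate 1 and 11.8 in replicate 2 (9.55 ± 3.17, SD, n = 2). It was in the first 20 places of both extractions, at place 19 in replicate 1 and place 2 in replicate 2, and no other member had a better lower place. The region at 14334081 to 14334295 (215 bp) scored 10.6 in replicate 1 and 6.97 in replicate 2, which are places 2 and 47. The region at 8277536 to 8277775 (240 bp) was place 1 of replicate 2 with a score of 12.2, and place 108 of replicate 1 with 4.77. The member in place 1 of each extraction was thus outside the 80 highest of the other.

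At 6612768 to 6613290 (523 bp) the scores were 6.37 in replicate 1 and 10.4 in replicate 2. At 7530328 to 7530688 (361 bp) they were 6.67 and 9.88. At 13550086 to 13550323 (238 bp) they were 9.06 and 7.41, with a mean of 8.24 ± 1.17 (SD, n = 2). All of these were high in both extractions. The remaining 8 of the 15 had whole-series scores of 7.31 to 7.91. By replicate 1 alone, 7 of these 15 were among its 15 highest members, and by replicate 2 alone, 6. Of all 15, 7 scored higher in replicate 1 and 8 in replicate 2, and 5 differed by over 2-fold. Over all 800 members, 31.75% scored higher in replicate 1 and 68.25% in replicate 2. Replicate 1 was over 2-fold higher in 1.38% of all members and replicate 2 in 10%. A rule by the mean favours members with a very high score in a single replicate.

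**Figure D1:**
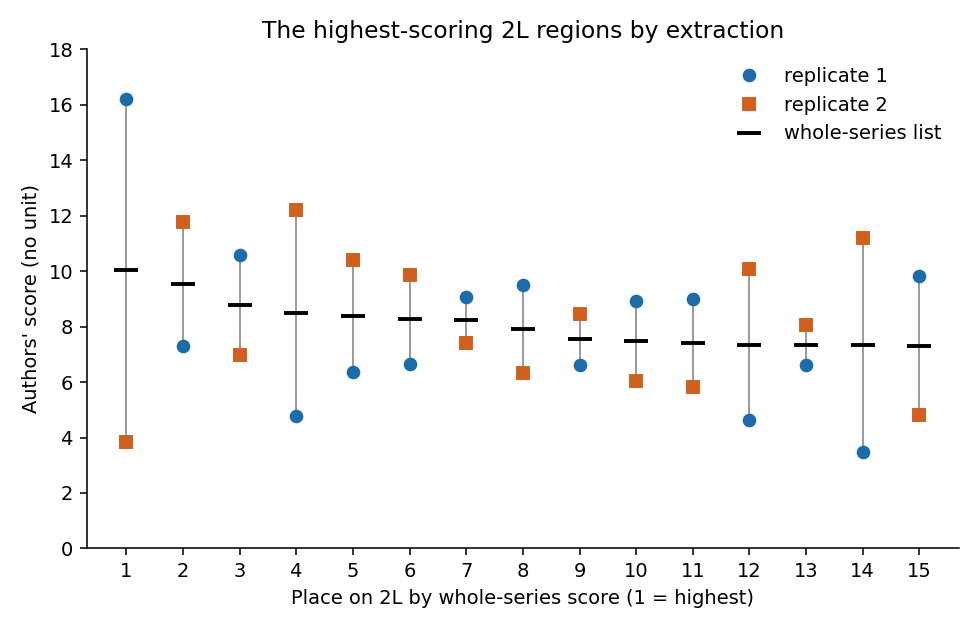
Authors' score (no unit, linear axis) of the 15 highest-scoring 2L members, ordered by whole-series score: circles are replicate 1, squares replicate 2, black dashes the whole-series score, and grey lines join the replicates. The region in place 1 spans 3.85 to 16.2, and the region in place 2 spans 7.31 to 11.8.

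A second set of 10 was taken by the lower of the places a member held in either extraction, a rule that needs high scores in both. Of these, 6 were also among the 15 highest by mean: 13736140, 6612768, 7530328 and 13550086, described above, and the regions at 14262951 to 14263176 (226 bp; 6.62 and 8.46) and at 714836 to 715049 (214 bp; 6.62 and 8.08). The other 4 were not among the 15. The 307 bp region at 3354669 to 3354975 had scores of 7.11 in replicate 1 and 7.12 in replicate 2 (7.12 ± 0.011, SD, n = 2). The 225 bp region at 10544790 to 10545014 scored 6.58 and 7.52, and the 191 bp region at 3656822 to 3657012 scored 6.64 and 7.63. The 252 bp region at 12822635 to 12822886 had scores of 6.34 in replicate 1 and 7.18 in replicate 2. Over all 10 the higher replicate score was 1.00 to 1.63 times the lower, a closeness that the rule itself favours.

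Of the 80 highest members of each replicate, 29 were shared, or 36.25% of each list. These 29 lay in 13 of the 1 Mb windows of the arm. They had a median width of 256 bp (176 to 616 bp), against 276.5 bp over all 800 members, and none was 1000 bp or wider. In turn, 4 of the 80 highest of replicate 1 were in the lower 50% of replicate 2, and 6 of the 80 highest of replicate 2 were in the lower 50% of replicate 1. Among the 200 highest of each, 127 were shared (63.5% of each). Both shares were taken on 2L only, so they show nothing particular to this arm.

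Over all 800 members the scores of both extractions rose together with wide scatter, with a Spearman correlation of 0.62 and a Pearson correlation of 0.61 on log2 scores. These describe regions of the same 2 libraries and carry no p-value. Member scores ran from 1.32 to 16.2 in replicate 1 (median 2.65) and from 1.22 to 12.2 in replicate 2 (median 3.33). The score was higher in replicate 1 for 254 members (31.75%, against 35.0% over the whole-series list) and higher in replicate 2 for 546 (68.25%, against 65.0%). The log2 ratio of replicate 1 over replicate 2 had a median of -0.24, with an SD of 0.58 over members. Since the score has no stated scale, this shift is not shown to be a difference in Pol II. A total of 266 of the 800 members had scores within 1.2-fold of each other, a count taken on 2L only.

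A difference of over 2-fold was found in a minority of members, mostly with replicate 2 higher. Replicate 1 was over 2-fold higher in 11 members (1.38%, against 1.97% of the whole-series list), and replicate 2 in 80 (10%, against 10.4%). The shares on 2L were thus close to those of the whole list. The largest excess of replicate 1 was at 20223064 to 20223244, the region in place 1 above, with a log2 ratio of 2.08. It was followed by 402103 to 402244 (142 bp), with scores of 8.18 in replicate 1 and 2.68 in replicate 2, and by 21096812 to 21097015 (204 bp), with 6.21 and 2.20. The 1254 bp region at 16324427 to 16325680 scored 7.27 as the mean of 2 regions in replicate 1 and 2.60 in replicate 2. The higher of the 2 replicate 1 regions scored 12.7, so the mean rests largely on it. Together the 2 covered 401 bp, against 1254 bp in replicate 2. The fifth, at 5100801 to 5100928, scored 5.33 and 1.94. Apart from the region of 1254 bp, the members with the largest excess in replicate 1 were 128 to 204 bp wide. Their replicate 1 regions were 169 bp wide at 20223064, 49 bp at 402103, 201 bp at 21096812 and 86 bp at 5100801.

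The largest excess of replicate 2 was at 11501649 to 11501835 (187 bp), which scored 2.10 in replicate 1 and 10.3 in replicate 2, a log2 ratio of -2.29. The region at 1256339 to 1256543 (205 bp) scored 2.90 and 10.9, and the region at 14040132 to 14040373 (242 bp) scored 2.86 and 10.5. These 3 were among the first 7 places of replicate 2 and between places 333 and 582 of replicate 1. The other two were at 5317350 to 5317672 (1.64 and 5.69) and at 20562226 to 20562517 (2.43 and 7.87). All 5 were 187 to 323 bp wide and joined a single region of each replicate.

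**Figure D2:**
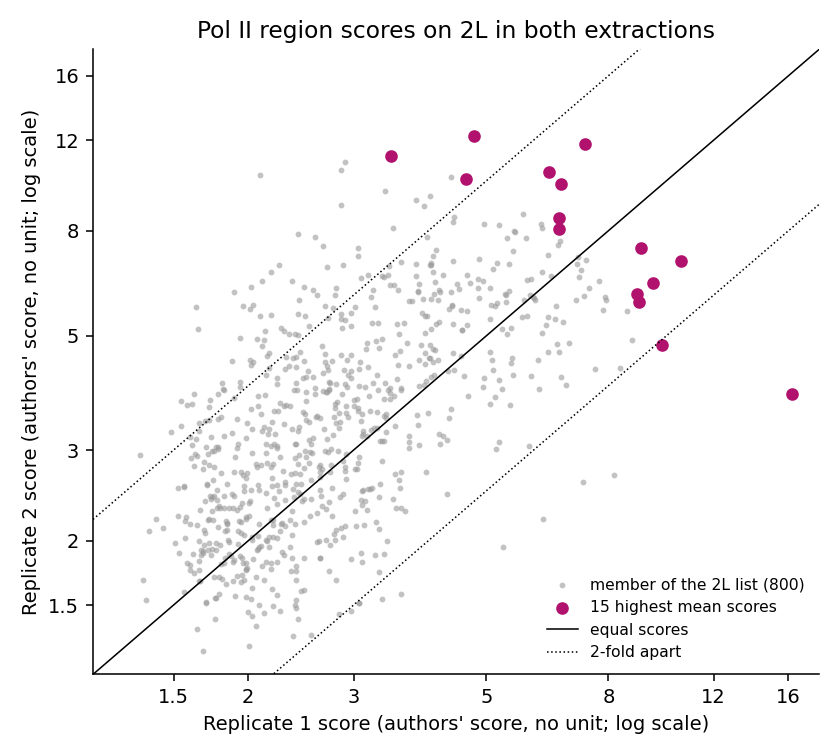
Replicate 1 score (x axis) against replicate 2 score (y axis) of the 800 members on 2L, both on log axes; the solid line marks equal scores, the dotted lines 2-fold apart, and the large points the 15 highest mean scores. More points lie above the solid line (546) than below it (254), and 80 lie beyond the upper dotted line against 11 beyond the lower.

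Both extractions placed a shared region at nearly the same centre, and replicate 2 drew it wider. In the 742 members that joined a single region of each replicate, the centres were a median of 16 bp apart (quartiles 6.5 and 56.4 bp, maximum 763.5 bp). Of these members, 540 (72.8%) had centres within 50 bp of each other. Joined regions overlap, which already limits the distance between their centres. The replicate 1 region lay inside the replicate 2 region in 571 members (77.0%), and the reverse held in 41. In 130 the regions were staggered, and in 0 were both ends equal. The median width in these members was 174 bp in replicate 1 and 249 bp in replicate 2, and 658 were wider in replicate 2. The libraries were selected for fragments of 150 to 200 bp, so widths in this range are near the resolution of the assay.

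Members were 22 to 4019 bp wide, with a median of 276.5 bp (quartiles 204 and 517.5 bp), against 157 bp in the list of replicate 1 alone and 200.5 bp in that of replicate 2 alone. Width and score were hardly related, with a Spearman correlation of -0.04 over members, and it was 0.25 over all 1046 regions of replicate 1 and 0.12 over all 1630 of replicate 2. The relation was not monotonic. The 57 members under 150 bp had a median score of 2.26, the 291 of 150 to 249 bp 3.41, the 237 of 250 to 499 bp 2.98, the 153 of 500 to 979 bp 2.83, and the 62 of 1000 bp or more 2.85. Of the 80 highest-scoring members, 30 were 150 to 249 bp wide and 40 were 250 to 499 bp wide. A single one was under 150 bp and 0 were 1000 bp or wider.

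**Figure D3:**
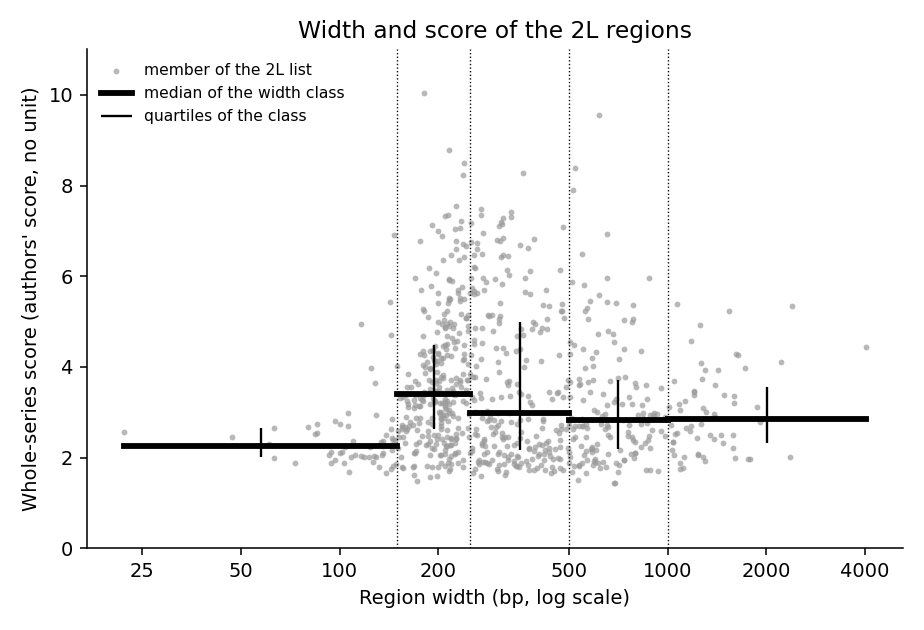
Width in bp (log axis) against whole-series score (no unit, linear axis) of the 800 members on 2L; dotted lines bound the 5 width classes, thick lines are class medians and thin lines class quartiles. Of the 62 members with a score above 6, 61 are 150 to under 1000 bp wide, and the class under 150 bp has the lowest median, 2.26.

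The rank agreement between the extractions also differed with width, in classes chosen after the values were seen. The Spearman correlation of replicate scores was 0.10 over the 57 members under 150 bp and 0.50 over the 291 of 150 to 249 bp. It was 0.70 over those of 250 to 499 bp, 0.70 over those of 500 to 979 bp and 0.64 over the 62 broadest. The SD of the log2 ratio did not single out the narrowest class. It was 0.56 under 150 bp, 0.64 at 150 to 249 bp, and 0.55, 0.46 and 0.45 in the wider classes. The log2 ratio of replicate 1 over replicate 2 had a median of 0.09 in the narrowest class and of -0.40 in the class of 150 to 249 bp, and it was -0.17 to -0.29 in the wider classes. The members under 150 bp had score quartiles of 2.01 and 2.65, against 2.64 and 4.48 for those of 150 to 249 bp; the part of this range in the correlation was not tested.

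Long stretches of called Pol II were few and of middling score. A total of 62 members (7.75%, against 7.10% of the whole-series list) were at least 1000 bp wide and held 25.9% of the length covered by members. The list of replicate 1 alone had 21 regions of this width and that of replicate 2 alone had 56. In 23 of the 62 the regions of both replicates covered at least 1000 bp. In 7 the replicate 1 regions covered under 250 bp, and in 0 did those of replicate 2. Width in the whole-series list therefore often came from replicate 2.

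The widest member spanned 4019 bp at 870414 to 874432. In replicate 1 it was 2 regions, of 749 bp with a score of 6.36 and of 3041 bp with a score of 3.77. In replicate 2 it was 3 regions, of 3118, 214 and 226 bp, with scores of 3.999, 4.22 and 2.85. Both extractions thus called nearly the whole stretch, and the gaps fell at different places in it. The second widest, 2392 bp at 2752155 to 2754546, was undivided in replicate 2, where it scored 6.17. In replicate 1 it was 2 regions, of 259 bp (score 2.45) and 1622 bp (score 6.55). Its whole-series score of 5.33 was the highest of the 10 widest members.

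Several broad members were drawn almost alike in both extractions. The region at 16784640 to 16786854 was 2121 bp wide in replicate 1 and 2199 bp in replicate 2, with scores of 2.97 and 5.23. At 8041215 to 8042933 the widths were 1685 and 1719 bp and the scores 3.56 and 4.40. At 7825702 to 7827334 the widths were 1610 and 1623 bp and the scores 4.07 and 4.44 (4.25 ± 0.26, SD, n = 2). These 3 differed in extent by under 100 bp between the extractions.

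A pair of broad members lay next to each other near the base of the arm. The region at 21678240 to 21680152 was 1913 bp wide in replicate 1 and 1699 bp in replicate 2, with scores of 3.10 and 2.50. It was followed, 439 bp on, by 21680592 to 21682209, 1618 bp wide, with a replicate 1 score of 4.31 and a mean replicate 2 score of 4.27. Further towards the centromere, the region at 22166427 to 22168782 (2356 bp) had a score of 2.03 in replicate 1 and a mean of 2.01 over 2 regions in replicate 2.

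In other broad members replicate 1 covered less. The region at 10009964 to 10011749 (1786 bp) was called at full width in replicate 2 with a score of 1.53 and 64 bp in replicate 1 with a score of 2.40. At 19574952 to 19576702 (1751 bp), the replicate 2 call was undivided (score 2.19), and replicate 1 had 2 of 471 and 604 bp, with scores of 1.65 and 1.84. At 15333557 to 15335430 (1874 bp), replicate 2 again had a single region (score 3.48) and replicate 1 had 2 of 319 and 1173 bp (scores 3.22 and 2.34).

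How many regions were found in both extractions depended on the list and on width. Of the 1046 replicate 1 regions on 2L, 851 overlapped replicate 2 by at least 1 bp (81.4%, Wilson 95% interval 78.9% to 83.6%), against 80.0% over all chromosomes. Of the 1630 of replicate 2, 817 overlapped replicate 1 (50.1%, 47.7% to 52.5%), against 49.9% over all chromosomes. Both shares on 2L were near those of the whole lists. In the narrowest 25% of replicate 1 (1 to 85 bp), 46.0% (40.0% to 52.0%) were shared, against 90.1% (85.9% to 93.1%) in the next 25%. In replicate 2 the narrowest 25% (1 to 106 bp) had 13.5% (10.5% to 17.2%) and the widest 74.0% (69.6% to 78.0%). In replicate 1 the 2 widest classes had 95.4% (92.1% to 97.4%) and 93.9% (90.3% to 96.2%), with overlapping intervals.

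By score, the shared part of replicate 2 was 27.0% in the lowest 25%, 37.0% and 52.8% in the middle classes and 83.6% (79.7% to 86.9%) in the highest. In replicate 1 it was 74.3%, 72.1%, 82.4% and 96.6% (93.6% to 98.2%) from the lowest to the highest class. The first 2 classes of replicate 1 had overlapping intervals.

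**Figure D4:**
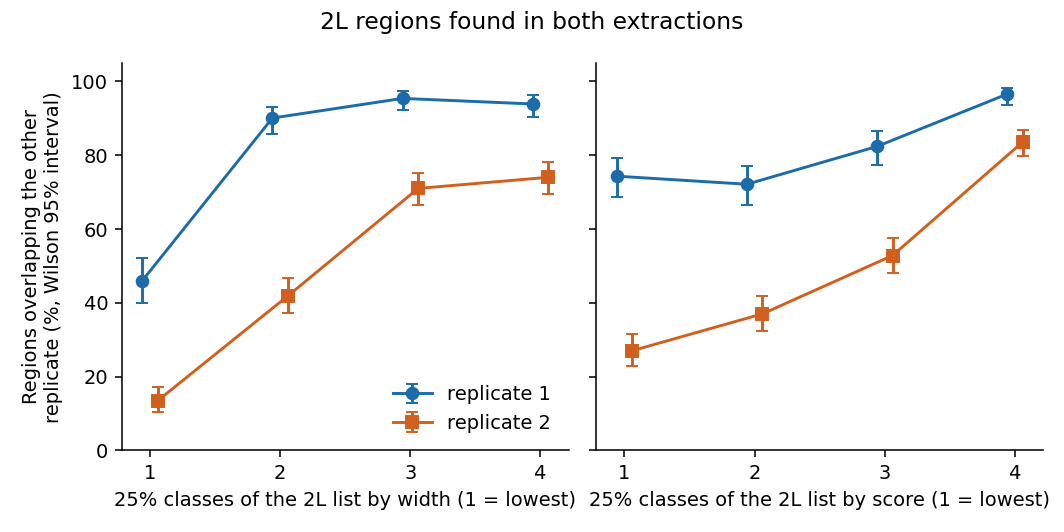
Share of 2L regions of each replicate (in percent) that overlap a region of the other by at least 1 bp, in classes of 25% by width (left) and by score (right); circles are replicate 1, squares replicate 2, and bars are Wilson 95% intervals. Replicate 2 goes from 13.5% in its narrowest to 74.0% in its widest class, and replicate 1 lies above it in every class.

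Regions of a single extraction were short. The 195 unshared replicate 1 regions had a median width of 52 bp and a median score of 2.15, against 178 bp and 2.60 for the 851 shared ones. The 813 unshared replicate 2 regions had a median of 122 bp and 2.16, against 258 bp and 3.31 for the 817 shared ones. A total of 94 unshared replicate 1 regions (48.2%) and 182 unshared replicate 2 regions (22.4%) were narrower than 50 bp, below the size of any selected fragment. Of the unshared replicate 1 regions, 101 (51.8%) lay within 1000 bp of a replicate 2 region, and of the unshared replicate 2 regions, 225 (27.7%) lay within 1000 bp of a replicate 1 region. The lists differ in length (1046 regions in replicate 1 and 1630 in replicate 2), and the part of this in the difference was not tested.

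The highest scores of unshared regions stood on very few bases. In replicate 2 the highest score of its whole 2L list, 21.6, was that of a region of 1 bp at 13300691, which lay 549 bp from the nearest replicate 1 region. It was followed by 6093415 to 6093486 (72 bp, score 10.5) and by 5309585 to 5309592 (8 bp, score 9.88), which lay 40 bp from replicate 1. The next were at 7053280 to 7053311 (32 bp, 8.64) and at 2980872 (1 bp, 7.82). This was not particular to unshared regions. The highest score of a shared replicate 2 region, 12.3, was in the member at 3826611 to 3826991. The 2 replicate 2 regions of that member covered 3 bp together.

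In replicate 1 the highest unshared score was 12.3, at 14187097 to 14187121 (25 bp). The second was less than 50% of it, 5.39 at 7430727 to 7430754 (28 bp), followed by 4.04 at 1695099 to 1695136 (38 bp). The remaining 2, at 6650490 (3.97) and at 12106482 (3.87), were 1 bp wide, the second of them 32 bp from a replicate 2 region. A high score without width was thus seen in both extractions.

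Along the arm, members were spread from 7876 near the telomere to 22875279 near the centromere, at 34.8 per Mb (exact Poisson 95% interval 32.5 to 37.3). The other 4 large arms together had 35.6 per Mb (34.4 to 36.8), and the intervals overlap. The replicate lists had 45.6 per Mb in replicate 1 and 71.0 in replicate 2 on 2L, against 46.7 and 70.8 on the other large arms. Scores ranked within each arm had a correlation between replicates of 0.62 on 2L and 0.54 on the others, a difference that was not tested.

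The 22 full windows of 1 Mb held 15 to 54 members, with a median of 37.5. The fullest lay between 5 and 6 Mb, with 54 members (exact Poisson 95% interval 40.6 to 70.5), 68 regions in replicate 1 and 109 in replicate 2. The window between 16 and 17 Mb held 53 members, 62 regions of replicate 1 and 91 of replicate 2, and that between 19 and 20 Mb held 46, 60 and 100. The emptiest lay between 15 and 16 Mb, with 15 members (8.40 to 24.7), 21 regions of replicate 1 and 29 of replicate 2. It was followed by 17 to 18 Mb, with 20, 21 and 45, and by 14 to 15 Mb, with 22, 30 and 42. A full window thus lay between sparse ones, and both extractions showed it.

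**Figure D5:**
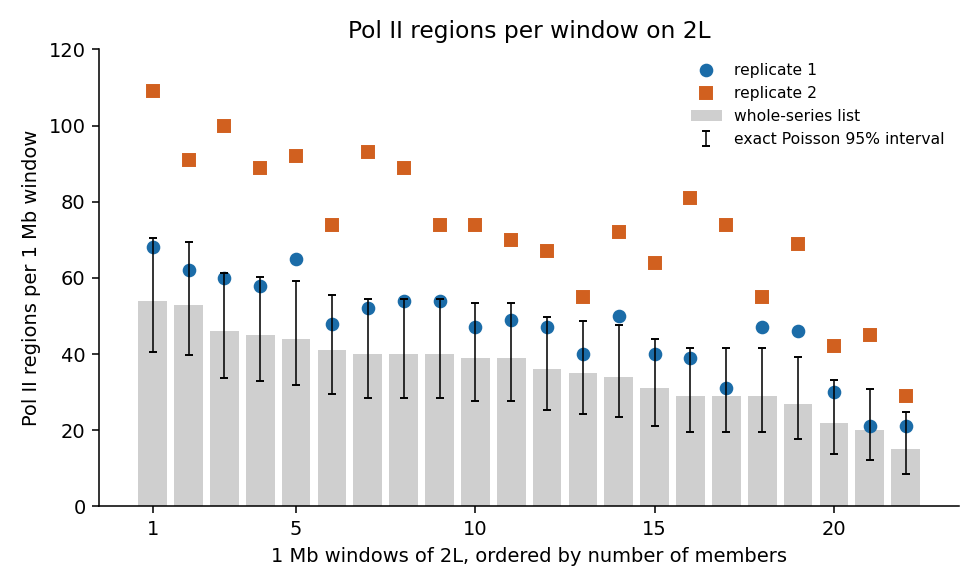
Pol II regions per 1 Mb window of 2L, with the 22 full windows ordered by number of members; grey bars with exact Poisson 95% intervals are the whole-series list, circles replicate 1 and squares replicate 2. Members range from 15 to 54 per window, and replicate 2 has more regions than replicate 1 in each window.

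A window with few members could hold high scores, and one with many could hold moderate ones. Between 14 and 15 Mb, the third emptiest window, the median member score was 3.92, the highest of the full windows, and 5 of its 22 members were among the 80 highest of the arm. Its median was highest in replicate 2 (4.23) but not in replicate 1 (2.86, against 3.37 between 0 and 1 Mb). Between 15 and 16 Mb the median member score was 2.31, the lowest, and 0 of 15 members were among the 80. That window was lowest in replicate 2 (2.32) but not in replicate 1 (2.55, against 2.16 between 12 and 13 Mb). In the fullest window the median member score was 2.90. The window between 8 and 9 Mb held 7 of the 80 highest, more than any other, and 6 fell in each of the windows starting at 0, 3, 9 and 13 Mb. The last stretch, from 22 Mb to the furthest region end, held 12 members with a median score of 2.18 and a median width of 614.5 bp. It had 17 regions in replicate 1 and 22 in replicate 2. How far reads of 36 nt can be placed uniquely in this sequence was not looked at.

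Within the window of 16 to 17 Mb, 28 of the 53 members lay in 100 kb, between 16.7 and 16.8 Mb. This stretch was picked after its values were seen. The 229 windows of 100 kb had a median of 3 members, 28 had none, and the second fullest, between 5.0 and 5.1 Mb, had 15. The 28 members were a median of 1.56 kb apart, and covered 12.5% of the stretch. Replicate 1 had 32 regions in it and replicate 2 had 42, so most calls there were shared. A stretch picked for its many members favours this, since each member joins regions of both replicates. Over 2L, 81.4% of replicate 1 regions and 50.1% of replicate 2 regions were shared. Scores were moderate, from 1.36 to 4.41 in replicate 1 (median 2.34) and from 1.68 to 5.99 in replicate 2 (median 2.96). None of the 28 was among the 80 highest of the arm, a set that holds 10% of all members. Of the 28, 24 scored higher in replicate 2, against 68.25% of all members.

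The succession with the most members lay in this stretch. There, 7 members between 16781724 and 16789073 had gaps of under 1000 bp, and together they covered 4614 bp of 7.35 kb. Their scores ran from 1.66 to 3.16 in replicate 1 and from 2.29 to 5.23 in replicate 2. The 2215 bp region at 16784640, described above, stood in the middle with the highest whole-series score of the 7, 4.10. The members on either side of it were at 16782880 to 16783963 (1084 bp, whole-series score 3.19) and at 16787502 to 16788092 (591 bp, 3.72). The outermost, at 16781724 to 16781938 and at 16788930 to 16789073, had 1.98 and 2.44. The 7 whole-series scores thus declined on both sides of the middle, apart from the last. In replicate 2 the middle region was the highest of the 7, with 5.23, beside 5.17 at 16787502. In replicate 1 the highest was 3.16, at 16782880, against 2.97 in the middle region.

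In all, 2L had 22 such successions of at least 3 members with gaps under 1000 bp, holding 79 members (9.88%, against 10.2% over the whole-series list). The number depends on the list and the limit: replicate 1 alone had 46 and replicate 2 alone 92, and members had 11 with gaps under 500 bp and 36 under 2000 bp. Those members had a median score of 2.62 and a median width of 471 bp, against 3.12 and 269 bp for the other 721. Successions of 5 members were at 5976648 to 5982740 and at 12431252 to 12436820. In the first, scores ran from 1.77 to 2.92 in replicate 1 and from 1.81 to 4.23 in replicate 2. A high member could stand beside low ones: between 8161075 and 8163246 a region with 8.93 in replicate 1 and 6.03 in replicate 2 stood in a succession with members as low as 2.14 in the whole-series list.

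Gaps between neighbouring members had a median of 12.1 kb (quartiles 2.69 and 33.4 kb), against 7.08 kb in the list of replicate 1 alone and 3.78 kb in that of replicate 2 alone. Of these gaps, 50 were at least 100 kb long, and together they took 7.79 Mb, or 33.9% of the arm. The longest ran for 446 kb from 22429127 to 22874808, near the centromere, with 0 regions in replicate 1 and 1 in replicate 2. The last member, at 22874809 to 22875279, stood alone beyond it, with scores of 1.97 in replicate 1 and 2.49 in replicate 2. The second longest, 287 kb from 15762841 to 16049728, also held 0 and 1.

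The third, 260 kb from 9176939 to 9437417, held 1 region in replicate 1 and 6 in replicate 2, none of which met. The fourth, 242 kb from 16888685 to 17130961, held 0 and 2, and began shortly after the dense stretch at 16.7 Mb. The fifth, 238 kb from 21380290 to 21618668, held 1 region in replicate 1 and 0 in replicate 2. The longest gaps were thus nearly empty in both extractions, with the gap at 9176939 as the fullest of the 5 in replicate 2.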

How the data were processed

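Region lists of 2 Pol II ChIP extractions and the whole-series list were read as deposited. Per the file headers they use FlyBase r5.1; PeakSeq, a caller of enriched regions, stands in the source column. The deposited score carries no unit. For aligner, filters, control and threshold, the sources used here give nothing. Regions were called per replicate, since each has its own list. A caller's threshold ties the number and width of regions to depth, which is unknown.

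Rows on 2L were kept. Replicate scores of a member are means over the replicate regions it overlaps by at least 1 bp. For 785 of 800 members the deposited score equalled the mean of those means within 0.0001. The labelled sample type gave the groups, and replicate numbers follow the order of the samples. All results are descriptions without a test. Alternatives were a stricter overlap, the upper 50% by score, equal list lengths, width limits, other gap limits, shifted windows and either replicate alone.

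Regions were named by rule: the 15 highest by whole-series score, the 10 widest, 5 at each end of the log2 ratio, the 10 with the best lower place, the 5 highest unshared of each replicate, the 5 longest gaps, and the 3 fullest and 3 emptiest windows. Regions named outside it were chosen after their values were seen, as were the width classes, 100 kb windows and 1.2-fold and 2-fold limits. Members and lists were chosen with earlier results of these data known. Planned naming of genes was not done, since the gene table is of Release 6. Scripts ran under Python 3.11.15 with SciPy 1.17.1, pandas 2.3.3, NumPy 2.4.6 and, for plots, Matplotlib 3.10.9. Routines for overlap, scores and successions were tested on simulated data.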

Additional observations from a re-analysis of the deposited data

How the results depend on the processing

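The share of 2L regions found in the other replicate was 50.7% of replicate 1 and 32.5% of replicate 2 with at least 50% of both regions covered, 64.8% and 62.0% with equal numbers of top regions, and 87.3% and 52.7% among regions at least 50 bp wide. In the upper 50% by score it was 75.9% of replicate 1 and 48.6% of replicate 2. The correlation of replicate scores was 0.26 in the upper 50% by score, a cut that narrows the range of both. The shared part of the 200 highest was 63.5%. With replicate 1 alone and with replicate 2 alone, there were 45.6 and 71.0 regions per Mb, a median width of 157 and 200.5 bp, 21 and 56 broad regions, a median gap of 7.08 and 3.78 kb, 46 and 92 successions, a correlation of width with score of 0.25 and 0.12, and a window median of 47.5 and 74 regions. Of the 15 highest members, 6 were also among the 15 highest by replicate 2 alone and 7 by replicate 1 alone. In the upper 50%, with 50% of the members by construction, the gap was 32.2 kb, successions 2, width against score 0.054 and the window median 18.5. At 2000 bp, 4 members were broad. Successions numbered 11 with gaps under 500 bp and 36 under 2000 bp. For the remaining differences the cause was not tested. No paired analysis was possible because the ChIP and input samples come from different extractions, so their numbers pair nothing, and no comparison between groups was made. Counts of members over 2-fold apart were 10 to 11 for replicate 1 and 77 to 81 for replicate 2 under alternatives added after the data were seen. Depth is unknown and limits any reading of the unequal list lengths.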

Other observations

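Scores of neighbouring members of 2L showed little relation. The Spearman correlation between the whole-series score of a member and that of the next was 0.09 over 799 pairs of neighbours, and 0.00062 over the 136 pairs less than 1000 bp apart. These are pairs of regions of the same libraries, given as a description.

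Scores on 2L took fewer values than there were regions. The 1046 regions of replicate 1 had 675 distinct scores, and the 1630 of replicate 2 had 1164. A score of 2.23163 occurred 22 times in replicate 1 and a score of 1.85221 occurred 23 times in replicate 2. Regions that shared a score with another were narrower, with a median of 97 bp against 210 bp in replicate 1 and 112.5 bp against 256 bp in replicate 2. Places among such regions are ties, and no read counts were derived from them.

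For 15 of the 800 members the deposited score was not the mean of both replicate means. All 15 joined several regions of a replicate, and for 10 of them it equalled the mean over all the regions joined. The widest member, at 870414 to 874432, is among the 15, with a deposited score of 4.45.

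The scaffold 2LHet, left out above, held 1 whole-series region, 1302 bp wide with a score of 3.22, against 2 regions in replicate 1 and 8 in replicate 2.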
